A study of Homo sapiens with 6 samples.

Results

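The RAB genes encode small GTPases that mark the membranes of the secretory and endocytic pathways. Genes were taken as members when the GENCODE annotation classed them as protein-coding and their symbol was RAB followed by a number and an optional letter, which left out genes for interactors such as RAB11FIP1. This gave 62 genes among 37255 transcription units (TUs), 18964 of them protein-coding. They were read in K562, a human chronic myelogenous leukemia line grown without treatment, and all libraries came from one source of cells. Total RNA depleted of rRNA was sequenced in 4 RNA-seq libraries, which measure RNA at steady state, and nascent RNA held by engaged polymerases was sequenced in 2 PRO-seq libraries. The design asked how far the amount of an RNA follows its transcription, and the ratio of the former to the latter was read as a relative RNA half-life. The study rested its main analyses on earlier public libraries instead. It reported that half-lives from those varied less and lay closer to published ones than half-lives from the libraries read here. PRO-seq density also depends on how fast polymerase elongates, and in bulk libraries fewer cells with an RNA and less RNA per cell cannot be told apart.

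A RAB protein switches between a GDP-bound and a GTP-bound form. Guanine nucleotide exchange factors (GEFs) load it with GTP on the right membrane, GTPase-activating proteins (GAPs) return it to the GDP form, and in the GTP form it recruits effectors such as tethers and motor adaptors. Newly made RABs are bound by an escort protein, receive lipid (prenyl) groups from a RAB-specific transferase, and are later drawn off membranes by GDP dissociation inhibitors (GDIs). RAB1, RAB2 and RAB6 act between the endoplasmic reticulum (ER) and the Golgi, RAB5, RAB4 and RAB11 on early and recycling endosomes, RAB7 on late endosomes, and RAB3 and RAB27 on secretory vesicles.

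The RNA-seq libraries held between 5732780 and 9002746 counts on TUs and the PRO-seq libraries 6993816 and 7245632. RAB genes received 12074 to 19058 counts in an RNA-seq library, which was 0.211% to 0.218% of its counts, and 19903 and 19920 counts (0.285% and 0.275%) in the PRO-seq libraries. RNA-seq replicates 1 and 3 differed little beyond sampling noise (chi-square per degree of freedom 1.11), as did replicates 2 and 4 (1.12), whereas this value was 1.74 to 2.11 for the other RNA-seq pairs and 1.61 for PRO-seq. Summing each close pair gave the same counts of RAB genes above and below the median mRNA as given further on. By the study's methods the cells shared a flask, so p-values measure only the spread between libraries of one culture. All 9 markers of the erythroid lineage and of K562 passed 1 TPM in RNA-seq, from EPOR at 10.8 to HBG2 at 6287 TPM. The B-cell and T-cell markers CD3E, MS4A1 and CD79A stayed at or below 0.324 TPM, and of the epithelial and fibroblast markers EPCAM stood at 119.8 TPM, COL1A2 at 1.36 TPM and COL1A1 at 0.186 TPM.

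Levels are given as TPM, a transcript's share of all length-scaled counts of a library, computed with exon length for RNA-seq and with TU span less 1000 bp for PRO-seq, so that genes can be compared per length. At least 1 RNA-seq count was seen for 60 of the 62 RAB genes and at least 1 PRO-seq count for 57. RAB41 and RAB4B had no count in any of the 6 libraries, and the 3 counts that a count of 0 allows in the summed RNA-seq libraries would be 0.206 TPM for RAB41 and 0.190 TPM for RAB4B. Such limits cover counting error only. Of the exon bases of RAB4B, 97.9% were shared on the strand with other counted TUs, where a read cannot be assigned. The limit for RAB4B is therefore no bound on its RNA. Above 1 TPM in RNA-seq stood 40 RAB genes and above 10 TPM in PRO-seq 32. Both thresholds were passed by 31 of the 62 genes, which therefore had a half-life estimate, as had 46.1% of all protein-coding TUs.

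**Figure D1:**
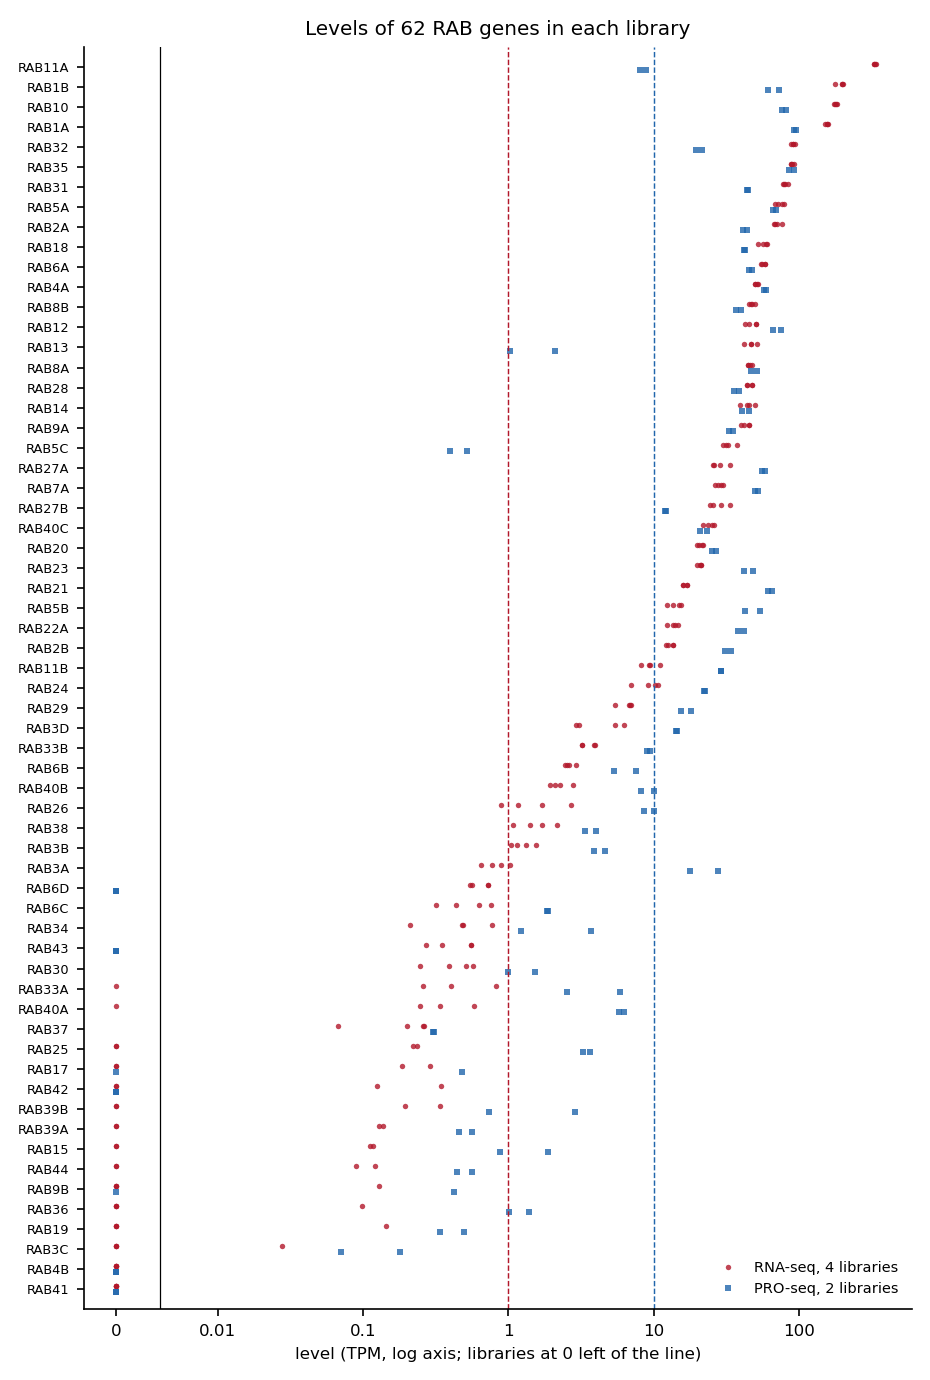
TPM of each of the 62 RAB genes in the 4 RNA-seq libraries (red circles) and the 2 PRO-seq libraries (blue squares), ordered by RNA-seq level on a log axis, with libraries at 0 drawn left of the solid line. The dashed lines mark the thresholds of 1 TPM for RNA-seq (red) and 10 TPM for PRO-seq (blue). For genes past both, the SD over the RNA-seq libraries had a median of 5.56% of the mean and reached 38.0%. Their 2 PRO-seq values differed by a median of 6.27% of their mean and by at most 24.7%.

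Promoters of 4 genes show what stood at the start of the RAB genes with the longest and the shortest estimates, among those whose counted transcript raised no doubt, which is defined further on. RAB32 and RAB1B had the highest values and RAB21 and RAB5B the lowest. Each line gives RefSeq sequence of GRCh38.p14 from 250 bases before to 50 bases after the annotated start, written 5′ to 3′ on the plus strand, the strand of these genes, with CpG dinucleotides in capitals. They lie at chr6:146543583-146543882 for RAB32, chr11:66268389-66268688 for RAB1B, chr12:71754613-71754912 for RAB21 and chr12:55973699-55973998 for RAB5B, the first of 2 starts listed for that gene.
RAB32: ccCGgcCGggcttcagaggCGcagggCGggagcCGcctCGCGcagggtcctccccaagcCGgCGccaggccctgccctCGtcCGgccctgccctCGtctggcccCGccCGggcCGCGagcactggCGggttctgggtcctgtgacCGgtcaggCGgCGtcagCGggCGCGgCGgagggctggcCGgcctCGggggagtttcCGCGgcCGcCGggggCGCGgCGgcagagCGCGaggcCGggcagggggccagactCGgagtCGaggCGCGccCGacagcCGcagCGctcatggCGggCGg
RAB1B: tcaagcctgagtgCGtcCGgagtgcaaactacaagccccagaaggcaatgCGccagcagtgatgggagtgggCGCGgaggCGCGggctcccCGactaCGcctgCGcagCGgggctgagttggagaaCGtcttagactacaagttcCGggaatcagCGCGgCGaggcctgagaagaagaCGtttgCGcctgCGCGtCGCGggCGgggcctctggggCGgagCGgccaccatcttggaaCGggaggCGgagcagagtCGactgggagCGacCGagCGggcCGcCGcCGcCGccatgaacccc
RAB21: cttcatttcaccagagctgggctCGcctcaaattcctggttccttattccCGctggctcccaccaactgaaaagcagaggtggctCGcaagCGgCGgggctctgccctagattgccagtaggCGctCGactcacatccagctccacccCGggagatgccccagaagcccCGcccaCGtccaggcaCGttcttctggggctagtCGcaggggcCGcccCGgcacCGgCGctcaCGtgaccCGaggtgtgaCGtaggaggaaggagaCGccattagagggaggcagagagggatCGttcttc
RAB5B: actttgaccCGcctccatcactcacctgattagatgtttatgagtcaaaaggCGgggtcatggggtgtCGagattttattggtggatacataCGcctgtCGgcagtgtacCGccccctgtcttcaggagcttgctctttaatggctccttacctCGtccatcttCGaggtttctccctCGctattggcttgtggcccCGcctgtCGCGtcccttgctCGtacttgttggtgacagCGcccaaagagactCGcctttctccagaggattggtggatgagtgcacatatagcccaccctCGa

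The RAB32 window held 45 CpG dinucleotides and 81.0% G+C, and that of RAB1B held 35 and 68.3%. The window of RAB21 held 21 CpG and 63.3% G+C, and that of RAB5B held 16 and 54.0%. A promoter entry was matched for 49 RAB genes, with a median of 65.0% G+C and 25 CpG, beside 63.0% and 23 over the mRNA genes. Over the 27 RAB genes with both an estimate and a promoter entry, Spearman's rho of promoter G+C with log2 half-life was 0.36, and over 7231 mRNAs it was -0.10. These are descriptions across genes, which share the same 6 libraries and are not independent replicates.

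Sequence motifs were counted on both strands of these windows, by exact letters and whether or not one match overlapped another. The GC box GGGCGG stood in 39 of 49 RAB promoters (79.6%) and in 25 of the 27 with an estimate (92.6%), beside 44.6% of 27305 promoters in all, 60.4% of those of mRNA genes and 72.9% of those of mRNAs with an estimate. CACGTG, the E box, stood in 6 of the 27 (22.2%; RAB21, RAB24, RAB29, RAB31, RAB4A and RAB5A) beside 10.8% of mRNAs with an estimate and 7.43% of all promoters. TATAAA was in none of the 27 and in 3 of the 49, beside 4.84% of mRNAs with an estimate and 12.0% of all promoters. CCAAT was in 7 of the 27 (25.9%), beside 38.1% of mRNAs with an estimate and 35.7% of all promoters. Nearer the mRNAs with an estimate were the ETS motif CCGGAAG, in 7 of the 27 (25.9% beside 22.7%), and the NRF1 motif GCATGCGC, in 2 (7.41% beside 6.14%). The GATA motif AGATAA was also in 2 (7.41% beside 4.36%).

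By RNA-seq level, 4 RAB genes exceeded 100 TPM, and together they held 42.1% of the RNA-seq TPM of the family. RAB1B, which acts in transport from the ER to the Golgi (chr11:66036110-66044963, plus strand, in the GRCh37 annotation used for all gene positions here), read 199.5, 178.2, 197.6 and 197.6 TPM in RNA-seq replicates 1 to 4 and 61.1 and 72.5 TPM in the PRO-seq replicates. RAB10 (chr2:26256953-26360323, plus strand), a regulator of delivery to the plasma membrane, read 177.2, 173.5, 179.4 and 182.6 TPM in RNA-seq and 81.3 and 75.9 TPM in PRO-seq. RAB1A (chr2:65297830-65357465, minus strand), the close relative of RAB1B, read 156.3, 157.2, 151.4 and 157.9 TPM in RNA-seq and 92.5 and 95.1 TPM in PRO-seq. The counted transcript of RAB1A was annotated as subject to nonsense-mediated decay and held 38.1% of the exon bases of the canonical one. For these 3 genes every RNA-seq value lay above every PRO-seq value, and RAB1A was below RAB10 in every RNA-seq library, while replicate 2 put RAB1B among the values of RAB10.

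The top place by RNA-seq belonged to RAB11A, the RAB of slow endosomal recycling, at 329.8, 331.4, 340.9 and 329.8 TPM, with 8.03 and 8.89 TPM in PRO-seq. Its counted transcript was not the canonical one. It had 347 bases of exon in a span of 161870 bp (chr15:66018392-66180261, plus strand), had no coding sequence defined, and held 4.56% of the exon bases of the canonical transcript, which spans 22499 bp. Of these 347 bases, 64.3% lay in exons of the canonical transcript, while the PRO-seq window ran far beyond its span, and RAB11A had no estimate because its PRO-seq level missed 10 TPM.

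By PRO-seq level the leaders were RAB1A (93.8 TPM from the summed libraries), RAB35 (88.9), RAB10 (78.6) and RAB12 (71.0), which held 22.1% of the PRO-seq TPM of the family. RAB35 (chr12:120532903-120554557, minus strand), which acts in recycling to the plasma membrane and in cytokinesis, read 84.8 and 92.9 TPM in PRO-seq and 91.9, 89.9, 88.4 and 87.7 TPM in RNA-seq, so the assays overlapped. RAB12 (chr18:8609435-8639381, plus strand) read 75.4 and 66.7 TPM in PRO-seq and 42.6, 45.0, 50.3 and 50.8 TPM in RNA-seq, with each PRO-seq value above each RNA-seq value.

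Among the 31 RAB genes with an estimate, RNA-seq levels ran from 4.14 to 192 TPM, a 46.5-fold range, and PRO-seq levels from 12.1 to 93.8 TPM, a 7.74-fold range. The SD of the log2 level was 1.37 in RNA-seq and 0.75 in PRO-seq, and over the 8733 mRNAs with an estimate it was 2.05 and 1.24. The median RAB gene stood at 44.7 TPM in RNA-seq (31.2 for the mRNAs) and at 43.2 TPM in PRO-seq (47.5 for the mRNAs). RNA-seq and PRO-seq levels correlated across the 57 RAB genes with counts in both assays with Spearman's rho of 0.80, beside 0.83 over 14965 mRNAs. Across the 31 genes past the thresholds rho was 0.59, beside 0.55 for the mRNAs. These correlations are across genes within one set of libraries and are given as descriptions.

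**Figure D2:**
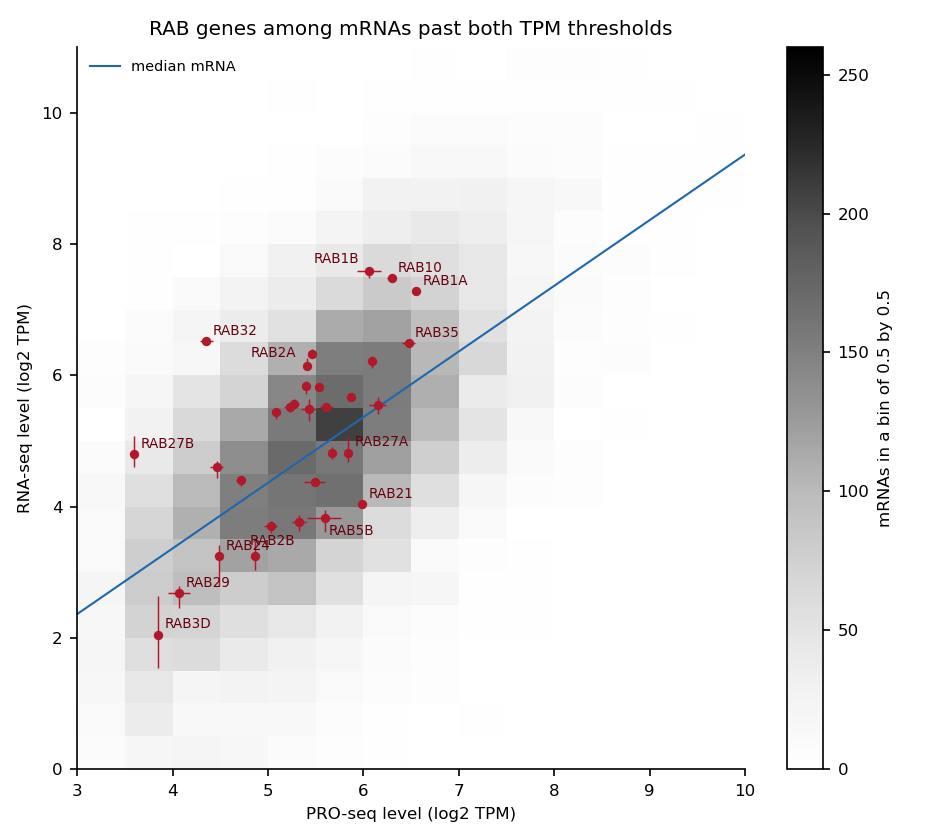
RNA-seq level against PRO-seq level (both log2 TPM from summed counts) of the 31 RAB genes past both thresholds (red, bars from the lowest to the highest library) over the number of mRNAs in each bin (grey); mRNAs beyond the axes are not drawn. The blue line is the median mRNA, and more RAB genes lie above it than below it.

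Relative half-life is given as the log2 ratio of RNA-seq to PRO-seq with the median mRNA set to 0. A value of 1 thus means a ratio that is 2-fold above that of the median mRNA. Equal TPM in the assays does not mark 0, so their overlap or separation does not place a gene against the median mRNA. For RAB4A and RAB12 every PRO-seq value lay above every RNA-seq value, yet RAB4A stood at 0.43 and RAB12 at 0.04. The median over the RAB genes was 0.65 (1.57-fold), and it lay between 0.55 and 0.66 in the 8 combinations of an RNA-seq with a PRO-seq library. Their quartiles were -0.54 and 1.03, and those of the mRNAs -1.06 and 1.08. The SD was 1.08 over the RAB genes and 1.68 over the mRNAs.

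In the edgeR quasi-likelihood test, with Benjamini-Hochberg adjustment over 10053 TUs at a threshold of 0.05, 19 of the 31 RAB genes (61.3%) were above the median mRNA and 10 (32.3%) below it, and 2 were not called. Over all TUs tested the same rule called 40.0% above and 50.4% below, and over mRNAs alone 45.4% above and 44.9% below. A test against a 2-fold difference called 7 RAB genes above (22.6%; RAB32, RAB1B, RAB27B, RAB10, RAB31, RAB2A and RAB1A) and 1 below (3.23%; RAB21), where it called 21.3% of all TUs above and 29.8% below. Over mRNAs alone it called 24.3% above and 23.2% below. The share of RAB genes past 2-fold above was thus near both backgrounds, and the share past 2-fold below, which rests on 1 gene, was under both. That 1 became 2 without RNA-seq replicate 2 or RNA-seq replicate 4 or with the replicate block. It became 4 when PRO-seq length was taken as span less 500 bp in place of 1000 bp, with the same counts. Standard errors of the log2 values had a median of 0.08 and ran from 0.04 to 0.39, and no test was made of the list as a whole, since its members were chosen by name with earlier results known.

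Genes of ER and Golgi traffic numbered 13, of which 6 had an estimate. Of these, 5 were above the median mRNA and 1 below, with a median of 1.22. RAB1A, among the 5, was counted on a transcript in doubt. The calls of this and the other roles rest on few genes. They are to be read beside 40.0% above and 50.4% below over all TUs tested, and 45.4% and 44.9% over mRNAs alone. The highest was RAB1B at 2.17 ± 0.09 (SE; edgeR adjusted p = 2.62e-20), and the lowest was RAB2B at -0.69 ± 0.11 (edgeR adjusted p = 2.49e-06). RAB2A and RAB1A both stood at 1.37, RAB18, a RAB of the ER and lipid droplets, at 1.07, and RAB6A, which acts in retrograde transport at the Golgi, at 0.92. The Golgi genes RAB33B and RAB6B were under the PRO-seq threshold of 10 TPM, at 9.18 and 6.45 TPM. RAB6A and its copies share sequence, with 12.2% of the 75-base stretches of RAB6A found elsewhere in the genome and 42.2% of those of RAB6C, so a read cannot always be assigned between them.

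Genes of early endosomes and recycling numbered 16, and of the 10 with an estimate 6 were above and 4 below, with a median of 0.38. RAB31 (chr18:9708298-9862548, plus strand), which acts between the trans-Golgi network and endosomes, was highest at 1.51 ± 0.05 (edgeR adjusted p = 6.28e-23). It read 78.9, 80.1, 77.7 and 84.1 TPM in RNA-seq and 44.2 and 43.7 TPM in PRO-seq, and the assays did not overlap. RAB21 (chr12:72148643-72194066, plus strand), a RAB of integrin endocytosis, was lowest of all members with an estimate at -1.31 ± 0.06 (edgeR adjusted p = 3.82e-19). It read 15.8, 17.0, 15.9 and 16.9 TPM in RNA-seq and 65.0 and 61.7 TPM in PRO-seq, again with no overlap and in the other direction. RAB21 had the seventh highest PRO-seq level of the family and the longest exon length among the members with an estimate, 15558 bases.

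The other endosomal genes formed a series between these. RAB5A, the fusion regulator of early endosomes, stood at 0.76, RAB14 at 0.69, RAB35 at 0.65, RAB4A, the RAB of fast recycling, at 0.43 and RAB20 at 0.32. The call of RAB20 was lost without PRO-seq replicate 2, where the value was 0.26 (edgeR adjusted p = 0.0521). Below the median mRNA were RAB22A at -0.92, RAB11B at -0.97 and RAB5B at -1.13. The values of RAB5A, RAB14 and RAB35 differed by less than the spread of their library combinations, which ran from 0.40 to 0.92 for RAB14, and so did those of RAB22A, RAB11B and RAB5B, which lay between -1.53 and -0.74.

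Of the 8 genes of late endosomes and lysosomes 6 had an estimate, with 2 above, 2 below and 2 not called, and a median of -0.09. RAB32 (chr6:146864969-146876089, plus strand), known for its part in melanosomes and other lysosome-related organelles, was the highest of the 31 genes at 2.80 ± 0.12 (edgeR adjusted p = 7.02e-20). It read 94.4, 91.5, 91.3 and 88.4 TPM in RNA-seq and 21.4 and 19.5 TPM in PRO-seq, a PRO-seq level that ranked 29 of 62. The lowest was RAB29 (chr1:205737114-205744610, minus strand), a partner of the kinase LRRK2, at -0.75 ± 0.23 (edgeR adjusted p = 0.0031), with 6.84, 5.45, 6.94 and 6.76 TPM in RNA-seq and 15.5 and 18.1 TPM in PRO-seq. The call of RAB29 rested on 57 PRO-seq counts and was lost without PRO-seq replicate 2, where the value was -0.64 (edgeR adjusted p = 0.0642).

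RAB7A, the main RAB of late endosomes, was close to the median mRNA at -0.21 ± 0.07 (edgeR adjusted p = 0.0042), with 27.9, 26.4, 30.1 and 28.9 TPM in RNA-seq and 51.9 and 49.7 TPM in PRO-seq. That call was lost without PRO-seq replicate 1, where the value was -0.17 (edgeR adjusted p = 0.055). RAB9A, which returns cargo from late endosomes to the Golgi, was above it at 0.99. RAB12 was not called, at 0.04 ± 0.08 (edgeR adjusted p = 0.656), nor was RAB24, a RAB linked to autophagy, at -0.61 ± 0.39 (edgeR adjusted p = 0.138). RAB24 had 18 PRO-seq counts in all, 9 in each library.

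Exocytosis and secretory vesicles held 12 genes, of which 6 had an estimate, with 4 above and 2 below and a median of 0.74. RAB27B (chr18:52385091-52551586, plus strand), a RAB of secretory granules and exosome release, was highest at 1.83 ± 0.14 (edgeR adjusted p = 4.32e-13). It read 29.2, 24.3, 33.7 and 25.5 TPM in RNA-seq and 12.0 and 12.2 TPM in PRO-seq, without overlap. Its counted transcript spanned 166496 bp and the canonical one 67040 bp, so the PRO-seq window ran far beyond the canonical span. RAB10 followed at 1.82, and its library combinations, 1.71 to 1.90, lay within those of RAB27B, 1.63 to 2.10. The lowest was RAB3D (chr19:11436015-11456946, minus strand), a RAB of regulated secretion, at -1.15 ± 0.24 (edgeR adjusted p = 5.74e-05), with 3.06, 2.90, 6.22 and 5.42 TPM in RNA-seq and 14.6 and 14.3 TPM in PRO-seq. RNA-seq replicates 1 and 2 of RAB3D were thus low and replicates 3 and 4 high, on 52 RNA-seq counts in all.

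Of the 3 genes of cilia, RAB28, a gene of inherited cone-rod dystrophy, stood at 0.93 ± 0.07 (edgeR adjusted p = 3.69e-14) and RAB23, a negative regulator of Hedgehog signaling, at -0.48 ± 0.08 (edgeR adjusted p = 1.72e-06). RAB28 read 47.7, 43.5, 44.2 and 47.9 TPM in RNA-seq and 36.0 and 38.8 TPM in PRO-seq, and RAB23 read 20.9, 21.1, 21.3 and 19.8 TPM in RNA-seq and 48.3 and 41.7 TPM in PRO-seq, so that their assays separated in opposite directions. The third, RAB34, was at 0.508 TPM in RNA-seq. Of the 3 genes with a SOCS box, which links RAB40 proteins to ubiquitin ligases, RAB40C was above the median mRNA at 0.78 ± 0.09 (edgeR adjusted p = 5.14e-09). It read 25.1, 25.9, 21.7 and 23.6 TPM in RNA-seq and 21.0 and 23.1 TPM in PRO-seq, and these overlapped. RAB40B and RAB40A missed the thresholds, as did all 7 genes outside the roles (RAB6D, RAB19, RAB36, RAB39A, RAB39B, RAB42 and RAB44).

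Relatives that share a number could be compared in 5 pairs with both members past the thresholds, out of 13 such subfamilies. An exact two-sided permutation test of the 6 libraries has 15 arrangements and cannot give a p below 0.0667, which was its value for each of the 5 pairs (Benjamini-Hochberg adjusted over the 5 pairs, the value is the same). RAB2A and RAB2B stood 2.06 apart in log2 half-life (1.92 to 2.13 over the library combinations), and RAB5A and RAB5B 1.89 apart (1.65 to 2.13). In both pairs the first gene was higher in both assays, by more in RNA-seq than in PRO-seq. RAB2A exceeded RAB2B 5.43-fold in RNA-seq and 1.30-fold in PRO-seq, and RAB5A exceeded RAB5B 5.23-fold in RNA-seq and 1.41-fold in PRO-seq.

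RAB2A (chr8:61429546-61536203, plus strand) read 68.4, 71.0, 67.7 and 76.4 TPM in RNA-seq and 43.8 and 41.2 TPM in PRO-seq, and RAB2B (chr14:21927179-21945118, minus strand) 13.7, 12.6, 12.1 and 13.6 TPM in RNA-seq and 34.2 and 31.1 TPM in PRO-seq. RAB5A (chr3:19988589-20026667, plus strand) read 71.9, 76.2, 68.9 and 78.7 TPM in RNA-seq and 69.8 and 66.6 TPM in PRO-seq, and RAB5B (chr12:56367862-56390467, plus strand) 13.6, 15.4, 12.3 and 15.0 TPM in RNA-seq and 54.2 and 42.3 TPM in PRO-seq. In each pair the genes did not overlap in either assay, and the second gene had its RNA-seq values below all of its PRO-seq values.

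The pair RAB27A and RAB27B showed the opposite arrangement, with RNA-seq levels that overlapped and PRO-seq levels that did not. RAB27A (chr15:55520864-55611311, minus strand) read 28.6, 25.7, 26.2 and 33.3 TPM in RNA-seq, next to the 24.3 to 33.7 TPM of RAB27B, and 55.7 and 58.7 TPM in PRO-seq, 4.72-fold above RAB27B. The log2 half-life of RAB27A minus that of RAB27B was -2.21 (-2.63 to -1.83). Both were counted on transcripts that held only 8.94% and 4.01% of the exon bases of their canonical transcripts. The span of the counted transcript was 1.04-fold the canonical span for RAB27A and 2.48-fold for RAB27B. The part of these spans in the PRO-seq difference was not tested. RAB1A minus RAB1B was -0.79 (-0.98 to -0.57), with a lower RNA-seq level (0.811 of RAB1B) and a higher PRO-seq level (1.40-fold). The counted transcript of RAB1A held 38.1% of the canonical exon bases in 1.38-fold the canonical span. Of the PRO-seq window of RAB1B, 84.8% lay across from other TUs. The part of these in the difference was not tested. RAB8A and RAB8B, of transport to the plasma membrane and the cilium, were closest, at -0.39 for RAB8A minus RAB8B (-0.59 to -0.19). RAB8A read 44.9, 47.7, 44.5 and 45.8 TPM in RNA-seq and 46.6 and 51.2 TPM in PRO-seq, and RAB8B 45.4, 46.8, 47.9 and 49.9 TPM in RNA-seq and 40.1 and 37.1 TPM in PRO-seq.

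The 31 RAB genes without an estimate had between 0 and 1569 RNA-seq counts (median 10) and between 0 and 711 PRO-seq counts (median 12), summed over libraries. For 9 of them RNA-seq passed its threshold and PRO-seq did not, for 21 neither passed, and for 1 PRO-seq alone passed. The last was RAB3A (chr19:18307594-18314852, minus strand), the RAB of synaptic vesicles, at 17.9 and 27.9 TPM in PRO-seq and 1.03, 0.651, 0.768 and 0.892 TPM in RNA-seq, on 75 PRO-seq and 17 RNA-seq counts. With a minimum of 10 summed counts per assay in place of the TPM thresholds, 41 RAB genes could be tested by edgeR, and 20 were above and 16 below the median mRNA, where 38.5% and 48.5% of 12946 TUs were. Of the 10 genes gained, 1 was above (RAB11A, 6.05), 7 were below and 2 were not called (RAB38 and RAB37). RAB3A was then lowest at -3.97 ± 0.35 (edgeR adjusted p = 8.87e-13), and RAB26, a RAB of secretory granules, and RAB40B followed at -1.67 and -1.27. Among the genes that this fit could test, the TPM thresholds thus left out more with low than with high values.

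Half-life values rest on the transcript and window that were counted. The counted transcript was the canonical one for 41 of the 62 RAB genes, and for 7 it held under 50% of the canonical exon bases (RAB11A, RAB14, RAB1A, RAB26, RAB27A, RAB27B and RAB3D). For 6 genes more than 50% of the PRO-seq window was shared on the same strand with another counted TU, where a read cannot be given to one gene. These were RAB4B and RAB43, with the whole window shared, RAB5C (99.6%), RAB13 (97.5%), RAB24 (82.9%) and RAB30 (66.5%). In all, 13 genes were in doubt by these measures or by more than 10% of window or exons shared on the strand, 6 of them with an estimate (RAB1A, RAB14, RAB24, RAB27A, RAB27B and RAB3D), and without them 16 genes were above the median mRNA and 8 below. That setting was chosen after seeing the data. It left 25 genes, whose calls are to be read beside 40.0% above and 50.4% below over all TUs tested.

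RAB5C, the third RAB5, had 278, 255, 156 and 171 counts in RNA-seq and 3 and 4 counts in PRO-seq, and RAB13, of tight junctions and cell-surface delivery, had 188, 225, 143 and 180 counts in RNA-seq and 2 and 1 counts in PRO-seq. Their RNA-seq levels, 33.1 and 46.5 TPM, were thus within the range of the genes with an estimate, and their PRO-seq levels, 0.461 and 1.56 TPM, were far below it. Of the 75-base stretches of RAB13, 34.4% also occurred elsewhere in the genome. RAB43 shared its window with the read-through gene ISY1-RAB43 and RAB4B with the read-through genes MIA-RAB4B and RAB4B-EGLN2, and neither had a PRO-seq count. The part of shared windows in these values was not tested. RAB24 shared its window with MXD3. An exon of 15 of the 31 genes with an estimate overlapped an exon of another annotated gene on either strand. Without these 15 there were 12 genes above and 4 below, with a median of 0.93. Over all TUs tested, with or without such overlap, 40.0% were above and 50.4% below. Whether reads were counted by strand was not given in the sources used here. Reads of overlapping genes on opposite strands may therefore be mixed, and such overlap was not among the measures of doubt. For instance, 84.8% of the PRO-seq window of RAB1B and 58.8% of the exon bases of RAB23 lay across from other TUs.

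Transcript features varied with half-life in RAB genes as follows, over 31 genes unless stated, as descriptions across genes of the same libraries. Spearman's rho of log2 half-life with exon length was -0.18 (-0.33 over the 8733 mRNAs), with the length of the 3′ UTR -0.18 over 27 genes (-0.29 over 8171 mRNAs), with TU span 0.35 (0.03) and with the number of exons 0.08 (0.06). With RNA-seq level the correlation was 0.82 (0.79 for mRNAs) and with PRO-seq level 0.09 (-0.01), and both share a term with the half-life itself. Exon length and TU span enter the half-life as well, since RNA-seq and PRO-seq counts are scaled by them. The median RAB gene had 2567 bases of exon, 6 exons and a span of 38079 bp, beside 3064 bases, 9 exons and 29515 bp for the mRNAs.

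The machinery that acts on RAB proteins was read from a list of 131 genes, of which 127 were counted and 91 had an estimate. Counted transcripts and shared windows were examined for the RAB genes only, so values of the genes on this list carry no such check. In the same edgeR test 32 of these were above the median mRNA and 52 below, and 7 were not called, with a median log2 half-life of -0.31. These shares, 35.2% above and 57.1% below, were nearer the 40.0% and 50.4% over all TUs tested than the 45.4% and 44.9% over mRNAs alone. The list for prenylation, escort and recycling held 7 genes, and 2 of the 5 with an estimate were above and 3 below. GDI2, the ubiquitous GDP dissociation inhibitor, had the highest value of the whole list at 4.14 ± 0.05 (edgeR adjusted p = 4.53e-33), with 698, 711, 711 and 691 TPM in RNA-seq and 61.9 and 62.1 TPM in PRO-seq. Every RNA-seq value of GDI2 was thus more than 10-fold above every PRO-seq value.

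The subunits of the RAB prenyl transferase were below the median mRNA. RABGGTB, the catalytic beta subunit, read 386, 448, 374 and 467 TPM in RNA-seq and 807 and 767 TPM in PRO-seq, at -0.27 ± 0.06 (edgeR adjusted p = 1.38e-04), and RABGGTA, the alpha subunit, read 8.85, 8.01, 8.85 and 9.77 TPM in RNA-seq and 17.6 and 27.7 TPM in PRO-seq, at -0.73 ± 0.23 (edgeR adjusted p = 0.0042). The subunits of one enzyme therefore differed more than 10-fold in both assays. The lowest of this list was RABIF, a chaperone of exocytic RABs, at -1.27 ± 0.12 (edgeR adjusted p = 5.40e-11), with 12.4, 13.4, 14.1 and 13.3 TPM in RNA-seq and 45.1 and 54.2 TPM in PRO-seq. The escort protein gene CHM was at 5.72, 5.20, 5.98 and 6.07 TPM in RNA-seq and just under the threshold in PRO-seq, at 9.68 and 9.39 TPM. Its paralog CHML was at 96.9, 100.9, 98.5 and 103.5 TPM in RNA-seq with no PRO-seq count in either library. The 3 counts that a count of 0 allows would be 0.546 TPM, a limit that covers counting error only. Whether the window of CHML was shared with another TU was not examined.

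Of the 37 GEF genes with an estimate 15 were above and 19 below, of the 24 GAP genes 8 and 15, and of the 25 effector genes 7 and 15. As shares these were 40.5% and 51.4%, 33.3% and 62.5%, and 28.0% and 60%. They are to be read beside the same 40.0% and 50.4% over all TUs and 45.4% and 44.9% over mRNAs alone. The medians were -0.28, -0.31 and -0.67. Among GEFs, the TRAPP complex subunit TRAPPC3 was highest at 2.30 ± 0.06 (edgeR adjusted p = 2.67e-24) and its partner TRAPPC5 lowest at -5.26 ± 0.20 (edgeR adjusted p = 1.18e-20). TRAPPC3 read 209, 201.3, 211 and 205 TPM in RNA-seq, and TRAPPC5 0.980, 1.42, 0.626 and 1.45 TPM, with PRO-seq levels of 65.3 and 64.7 TPM for TRAPPC3 and 63.2 and 74.3 TPM for TRAPPC5. Members of one complex with similar PRO-seq levels thus sat at the ends of the list. TRAPPC5 was only just past the RNA-seq threshold of 1 TPM, at 1.15 TPM from summed counts, with replicates 1 and 3 under it.

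Among GAPs, TBC1D5, a GAP of RAB7, was highest at 1.56 ± 0.07 (edgeR adjusted p = 3.31e-18), with 24.3, 20.5, 26.8 and 21.9 TPM in RNA-seq and 12.1 and 12.4 TPM in PRO-seq. EVI5L was lowest at -2.05 ± 0.18 (edgeR adjusted p = 6.75e-12), with 1.47, 1.71, 2.09 and 2.16 TPM in RNA-seq and 12.4 and 11.1 TPM in PRO-seq. Among effectors, USO1, the RAB1 tether p115, was highest at 2.89 ± 0.06 (edgeR adjusted p = 3.98e-28), with 115, 119.7, 108 and 118 TPM in RNA-seq and 24.9 and 23.8 TPM in PRO-seq. BICD1, a dynein adaptor of RAB6, was lowest at -2.56 ± 0.09 (edgeR adjusted p = 2.27e-21), with 1.50, 1.58, 2.15 and 1.91 TPM in RNA-seq and 15.7 and 16.3 TPM in PRO-seq.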

How the data were processed

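K562 cells gave 4 libraries of total RNA and 2 of nascent RNA, grouped by assay from their titles. The authors deposited raw read counts per transcript; per the labels, cutadapt trimmed the reads, HISAT2 aligned them to GRCh38 and HTSeq counted them, with versions and strand not named there. Rows naming no TU (66.5% to 68.6% of RNA-seq records, 86.5% and 88.6% of PRO-seq records) were left out, and counts on TUs then ranged from 5732780 to 9002746.

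Transcripts were joined by identifier to GENCODE on GRCh37 (37339 of 42371), so lengths can differ from those counted on, and 84 TUs spanning no more than 1000 bp were dropped. PRO-seq length was span less 1000 bp, 500 bp at each end. TPM came from summed counts. RNA-seq was compared with PRO-seq in all 6 libraries with edgeR 4.0.16 (R 4.3.3; quasi-likelihood test, TMM, length offsets, centred on the median mRNA, Benjamini-Hochberg adjustment); the fit was tested on simulated data. Alternatives were DESeq2 1.42.0, other size factors, filters, windows and centres, each library left out, a replicate block and summed close pairs. Python 3.11.15, numpy 2.4.6, pandas 2.3.3 and scipy 1.17.1 did the rest. Promoters were RefSeq entries (GRCh38.p14), the first start of each gene.

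Same-numbered replicates of the assays did not deviate together (r = -0.01 over 10053 TUs), so numbers were not taken as pairs. Per-library values are given for the 4 highest genes of each assay, the ends of each role, pairs of the same number, genes past the PRO-seq threshold alone, the ends of each pathway list, and GDI2, CHM, CHML, RABGGTA and RABGGTB, with 1 further gene not reported here; those of RAB7A, RAB5C and RAB13 were added after their values were seen. Members, roles and lists were chosen with earlier results of these data known.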

Additional observations from a re-analysis of the deposited data

Results flagged for a closer look

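For 2 of the 31 RAB genes with an estimate, 1 RNA-seq library stood apart from the other 3 by Dixon's criterion, which sets the gap to the nearest value against the whole range of the 4 libraries. RAB1B was lowest in RNA-seq replicate 2, at 178.2 TPM beside 197.6 to 199.5 TPM, a gap of 0.909 of the range. RAB29 was also lowest in RNA-seq replicate 2, at 5.45 TPM beside 6.76 to 6.94 TPM, a gap of 0.875 of the range. Chance flags about 1 in 20 groups, which is close to 2 of 31. Without that library both genes kept their direction and their side of the threshold.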

How the results depend on the processing

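DESeq2, other size factors and the summed close pairs gave 19 RAB genes above and 10 below the median mRNA, as in the main test. The replicate block also gave 19 and 10, with 2 past 2-fold below in place of 1. Values moved most with the filter and the centre, and the cause of moves beyond the shift of the scale was not tested. A minimum of 1 summed count raised the scale of all TUs by 0.66 and gave 57 genes with an estimate, 20 past 2-fold above, 6 past 2-fold below, 58 pathway genes above and a RAB median of 0.11. A minimum of 10 raised the scale by 0.12 and gave 16 genes below, 4 past 2-fold below and a median of 0.15. Centring on all TUs raised it by 0.24 and gave 12 past 2-fold above, 0 past 2-fold below by edgeR (1 at an unadjusted p under 0.05) and a median of 0.89. Thresholds of 20 and 2 TPM gave 2 past 2-fold below. PRO-seq length taken as span less 500 bp in place of 1000 bp, with the same counts, gave 4 and a median of 0.53. Without members overlapping another gene's exon, 16 remained, with 12 above, 4 below, 0 past 2-fold below by edgeR (1 at an unadjusted p under 0.05) and a median of 0.93. Leaving out 1 library at a time gave 1 to 3 genes past 2-fold below (3 without PRO-seq replicate 1) and a median of 0.49 to 0.66.

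Of 462 single-gene comparisons, 442 kept direction and side of the threshold, and 21 of 31 genes did so throughout. RAB12, which was not called, turned to -0.0022 at the higher TPM thresholds and -0.055 with the replicate block, and ran from -0.067 to 0.141 without 1 library; it was called at 1 summed count (0.70, adjusted p = 1.51e-20 by edgeR) and when centred on all TUs (0.28, edgeR adjusted p = 0.0013), where RAB27A lost its call (-0.13, edgeR adjusted p = 0.183). At 1 summed count RAB27A turned to 0.28, RAB7A to 0.45, RAB23 to 0.18 and RAB24 to 0.050, and RAB7A to 0.028 when centred on all TUs, each by close to the shift of the whole scale. Low PRO-seq counts limit RAB24 and RAB29 most.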
